A study of Sus scrofa with 3 samples.

Results

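The genes described here encode secreted ligands of the BMP and TGF-beta family, receptors that bind them and inhibitors that damp the signal. The members were 4 ligands (BMP4, BMP7, TGFB1 and TGFB2), 2 receptors (BMPR1B and ACVR2A) and 2 inhibitors (SMAD6 and BAMBI), and every probe set of the array with exactly 1 of these symbols in the platform's gene table was taken. This gave 15 of 23999 probe sets, for 7 of the 8 genes. BMP4 and BMP7 had 1 probe set each, TGFB1, ACVR2A and BAMBI 2 each, BMPR1B 3 and TGFB2 4. SMAD6 had none under this rule. The study's own gene table gives that name to 1 further probe set, which is shown separately and left out of the counts and medians.

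The tissue was the germ of the last deciduous molar of the lower jaw (Dm3), including its dental lamina, from Wuzhishan miniature pig embryos at E40, E50 and E60, with no treatment or genetic change in any group. At E40 the germ was at the cap stage and had no secondary dental lamina, the strand from which the successor tooth grows. At E50 it was at the bell stage and this lamina was starting to form, and at E60 the lamina was present and the germ is labelled as secretory, although the methods call it late bell. Germs were pooled within 1 litter per stage and the RNA of a pool went onto 1 Affymetrix Porcine Genome Array, so stage, litter and array cannot be told apart, no p-value can be given, and every difference below is one between the arrays of 2 pools.

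Ligands of this family bind a complex of type I and type II receptor kinases, which phosphorylate receptor SMAD proteins. These join SMAD4, enter the nucleus and switch target genes on or off, and among the targets are inhibitors that feed back on the pathway. In the mouse tooth germ, BMP4 is one of the signals exchanged between dental epithelium and mesenchyme, and TGF-beta ligands act on the cells that become odontoblasts and ameloblasts. SMAD6 is an inhibitory SMAD that acts mostly on the BMP branch. BAMBI is a pseudoreceptor that resembles a type I receptor but has no kinase, and in frog embryos it is expressed together with Bmp4.

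Values are MAS5 signals on a linear scale, in arbitrary units, and differences are in log2 signal. Signals below a floor, set at the 25th percentile of each array (29.3, 17.2 and 21.8 at E40, E50 and E60), were raised to it. A probe set counted as measured where at least 1 signal of the pair reached the floor, and as up- or down-regulated where the signals then differed by more than 2-fold. Where only 1 of the signals reached the floor, the fold is a lower bound. The 3 pairs of arrays are called the first step (E50 versus E40), the second step (E60 versus E50) and the whole interval (E60 versus E40). Signals are given in the order E40, E50, E60. Levels of different probe sets are not compared. Where a gene had several probe sets, the SD of the log2 difference between probe sets of 1 gene was 0.55 over the first step (1596 genes), 0.41 over the second (1625 genes) and 0.50 over the whole interval (1596 genes). Part of this spread comes from the probes themselves. All probe sets of a gene were read on the same 2 arrays, so the spread holds no variation between litters, pools or arrays. It is therefore not the precision of a stage difference, for which the data hold no measure.

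The makeup of the pools differed between the arrays. The 19 skeletal muscle genes with a probe set, of 23 listed, had summed signals of 47171.9, 1270.3 and 3978.2. All 19 were lower on E50 than on E40. Most of the E60 sum was MYL1 (481.2 on E50 and 3266.3 on E60), and 8 of the 19 lay under the floor on E60. The 6 genes of keratinised epithelium, of 10 listed, summed to 10995.9, 1897.8 and 2396.4, and KRT1 lay under the floor on all 3 arrays. Most of the E50 and E60 sums was KRT10, which was higher at each later stage (1320.7, 1713.5 and 2275.5). The 5 tooth epithelium genes, of 11 listed and all of the enamel matrix or its proteases, summed to 222.9, 5142.5 and 59209.2, with AMELX and ENAM under the floor on E40. The 4 tooth mesenchyme genes, of 11 listed, summed to 5630.0, 1438.2 and 10042.4, with DSPP and DMP1 under the floor on E40 and MSX1 above it on every array. The 8 endothelial genes, of 9 listed, summed to 3226.7, 1787.7 and 2771.5, the 5 macrophage genes, of 8 listed, to 640.0, 596.5 and 933.0, the 6 cartilage genes, of 10 listed, to 686.1, 3430.8 and 5325.0, most of it HAPLN1, and the 5 bone genes, of 7 listed, to 11302.5, 9091.2 and 16125.5. IBSP is on both the mesenchyme and the bone list. The part of these cell types in the results below was not tested, and in a pool fewer cells of a type and less RNA per cell cannot be told apart.

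Among all measured probe sets, 2.49% were higher and 15% lower over the first step, 6.24% higher and 1.84% lower over the second, and 4.4% higher and 12.3% lower over the whole interval. Of the 15 member probe sets, 14 were measured over the first step, of which 5 were higher (BMP7, both of TGFB1 and both of BAMBI) and 1 lower (BMPR1B). Over the second step all 15 were measured, 5 were higher (both of TGFB1, 1 of TGFB2 and both of BAMBI) and 0 lower. Over the whole interval all 15 were measured, 6 were higher (the 5 of the first step and 1 of TGFB2) and 5 lower (2 of BMPR1B, both of ACVR2A and 1 of TGFB2). Probe sets of 1 gene share their target, so these counts rest on 7 genes.

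**Figure D1:**
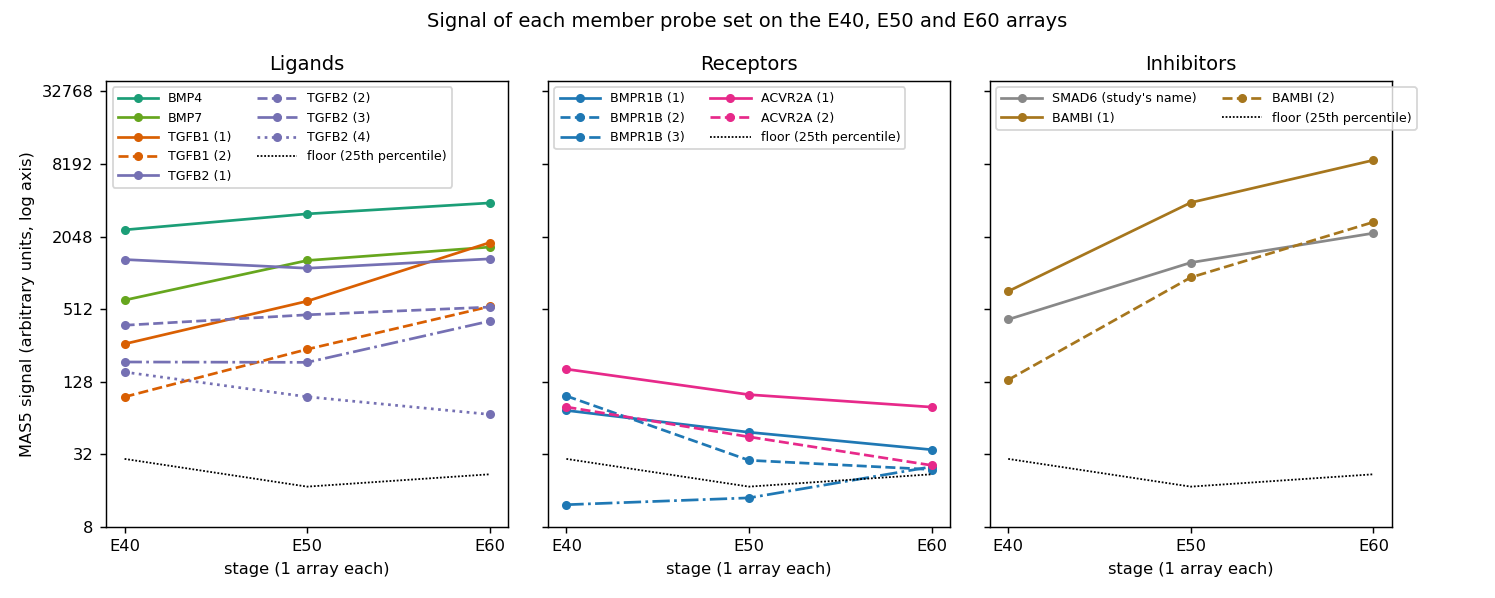
MAS5 signal (arbitrary units, log axis) of each member probe set on the E40, E50 and E60 arrays, 1 point per array, in panels for ligands, receptors and inhibitors, with probe sets of a gene numbered from the brightest. The dotted line is the floor of each array. The TGFB1, BMP7 and BAMBI lines go up at each step, those of BMPR1B and ACVR2A go down toward the floor apart from the dimmest of BMPR1B, and the 4 TGFB2 lines take different courses.

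TGFB1 was the ligand with the largest differences. It encodes TGF-beta 1, a ligand secreted in a latent form and best known for its effects on matrix synthesis and growth arrest. Its brighter probe set gave signals of 263.3, 596.1 and 1826.5. Its other probe set gave 95.7, 237.7 and 538.4. Both were higher at each later stage, so the 3 arrays stood in the same order for both. Over the first step TGFB1 was up-regulated 2.26-fold by the brighter probe set and 2.48-fold by the other (log2 differences 1.18 and 1.31). Over the second step the folds were 3.06 and 2.27 (1.62 and 1.18). Over the whole interval they were 6.94 and 5.63 (2.79 and 2.49), and the brighter one ranked 28 from the top among the 6197 genes measured, each by its brightest probe set. Both probe sets carry an ID ending that marks a set shared by several transcripts of 1 gene, so the values do not separate isoforms.

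BMP7, a BMP ligand expressed in several epithelia, was up-regulated mainly over the first step. Its signals were 607.9, 1297.1 and 1675.4. The difference was 2.13-fold over the first step (log2 1.09), 1.29-fold over the second step (0.37), which was not called, and 2.76-fold over the whole interval (1.46). Only 1 probe set carries this symbol alone, so BMP7 has no second reading of its own. A probe set that carries both BABAM1 and BMP7 as symbols was not called in any pair. Its differences were 0.27 over the first step, -0.20 over the second step and 0.08 over the whole interval.

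BMP4, one of the ligands through which dental epithelium and mesenchyme signal to each other, differed by less than 2-fold. Its signals were 2328.6, 3160.1 and 3893.1. The arrays again stood in stage order, with differences of 0.44 over the first step, 0.30 over the second step and 0.74 over the whole interval. Those of the first and second steps were smaller than the SD between probe sets of 1 gene for their pair. That SD is not the precision of a stage difference, so it does not say whether BMP4 differed between stages. None of the BMP4 differences passed 2-fold as deposited, and the whole interval did so only with the arrays set to equal medians (1.05).

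The 4 probe sets of TGFB2, which encodes TGF-beta 2, did not give 1 direction. The brightest had signals of 1320.6, 1118.8 and 1337.4. The second had 376.1, 459.4 and 532.3, the third 186.5, 185.2 and 407.4, and the dimmest 153.8, 95.9 and 68.5. The brightest was within 1.20-fold in every pair, the second differed by at most 1.42-fold, the third was higher on E60 alone and the dimmest was lower at each later stage. Over the whole interval the differences were 0.02, 0.50, 1.13 and -1.17 from the brightest to the dimmest, so 1 was called higher and 1 lower, and they spanned 2.29 log2 units. This is the widest span of the 5 members with more than 1 probe set, the next being 0.94 for BMPR1B. The sign of the brightest probe set also depended on the scaling over the first step and the whole interval, so no direction is given for TGFB2.

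Of the 5 receptor probe sets, 4 were lower at E60 than at E40, and the brightest of each gene lost this call with equal medians or quantile normalization. BMPR1B encodes a type I BMP receptor, known in the mouse for its part in the formation of digit cartilage. Its brightest probe set, by the mean over the arrays, had signals of 73.9, 48.7 and 34.9. The second had 97.4, 28.5 and 23.9. The third had 12.2 and 13.9, both under the floor, on E40 and E50, and 25.2 on E60. For the first 2 probe sets E40 was the highest array, and the third exceeded the floor on E60 alone. Over the whole interval the first was down-regulated 2.12-fold and the second 4.08-fold (log2 -1.08 and -2.03), while the third was not called and has no fold. Without a floor the third would be called higher over the whole interval (1.04), opposite to the others. Over the first step only the second passed the threshold, at 3.42-fold lower (-1.77), against -0.60 for the brightest, and the brightest stood at 0.00 after quantile normalization. Over the second step the differences were -0.48 and -0.25 and the third was at least 1.46-fold higher, and none was called.

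ACVR2A encodes a type II receptor for activins that also takes part in BMP signalling. Its brighter probe set had signals of 162.7, 99.9 and 78.8. Its other probe set had 78.9, 44.6 and 25.9. Both were lower at each later stage. Neither step passed 2-fold for either probe set (-0.70 and -0.82 over the first step, -0.34 and -0.78 over the second step). The whole interval did, at 2.07-fold and 3.05-fold lower (-1.05 and -1.61).

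All 5 receptor probe sets lay under the median signal of their array (163.5, 125.0 and 132.0) at every stage. Their lower values stood beside those of the skeletal muscle and keratinised epithelium genes over the first step, in which 15% of all measured probe sets were lower. Over the second step the 4 receptor probe sets that reached the floor at both stages gave differences of -0.25, -0.34, -0.48 and -0.78, all under 2-fold. The third BMPR1B probe set was at least 1.46-fold higher and was not called. The part of these cell types in the receptor values was not tested.

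BAMBI, the pseudoreceptor, showed the largest differences of all members over the first step and the whole interval, while over the second step the brighter TGFB1 probe set differed more. Its brighter probe set had signals of 719.9, 3921.5 and 8816.8. Its other probe set had 132.5, 938.7 and 2700.6. Both were higher at each later stage by more than 2-fold. BAMBI was up-regulated 5.45-fold and 7.09-fold over the first step (log2 2.45 and 2.83), and 2.25-fold and 2.88-fold over the second step (1.17 and 1.52). Over the whole interval the folds were 12.2 and 20.4 (3.61 and 4.35). Among the genes measured, the brighter probe set ranked 16 from the top of 6192 over the first step, 198 of 6178 over the second step and 13 of 6197 over the whole interval. Of the 5 tooth epithelium genes, 4 were higher over the whole interval as well and KLK4 was lower, and the part of the cells that make enamel matrix in the BAMBI values was not tested.

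The probe set that the study's gene table names SMAD6 had signals of 420.3, 1246.0 and 2184.8. It was higher at each later stage, 2.96-fold over the first step (log2 1.57) and 1.75-fold over the second step (0.81), and was 5.20-fold higher on E60 than on E40 (2.38). The platform table gives it no symbol, so these values hold for SMAD6 only as far as the study's naming does.

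**Figure D2:**
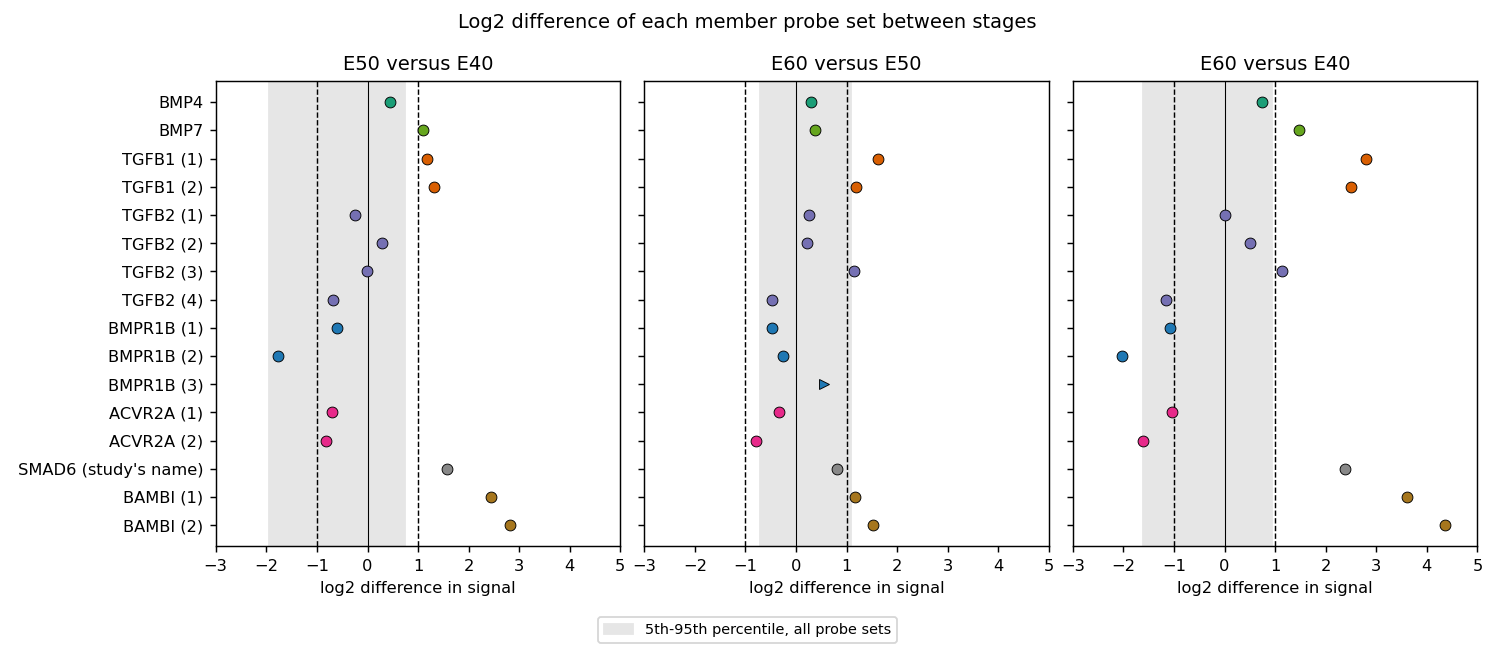
Log2 difference of each member probe set on E50 versus E40, E60 versus E50 and E60 versus E40, with dashed lines at 2-fold and grey bands from the 5th to the 95th percentile of all measured probe sets. Circles are measured differences, the triangle is a lower bound, and probe sets with no fold have no mark. Both BAMBI and both TGFB1 probe sets lie right of the 2-fold line in every pair, while the 4 called receptor values on E60 versus E40 lie left of it.

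Ligands and the receptor and inhibitor group had medians of opposite sign. By the brightest probe set, the median difference of the 4 ligands was 0.77 over the first step, 0.34 over the second step and 1.10 over the whole interval. That of the receptors and inhibitors, here BMPR1B, ACVR2A and BAMBI, was -0.60, -0.34 and -1.05. Over all genes measured the medians were 0.04, -0.04 and -0.01. The negative medians are those of the receptors, since BAMBI stood at 2.45, 1.17 and 3.61. With the probe set named SMAD6 added, the medians of the second group were 0.48, 0.23 and 0.67, so its sign turned with 1 probe set. Receptors and inhibitors are therefore described apart: the 2 receptors alone had medians of -0.65, -0.41 and -1.07.

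**Figure D3:**
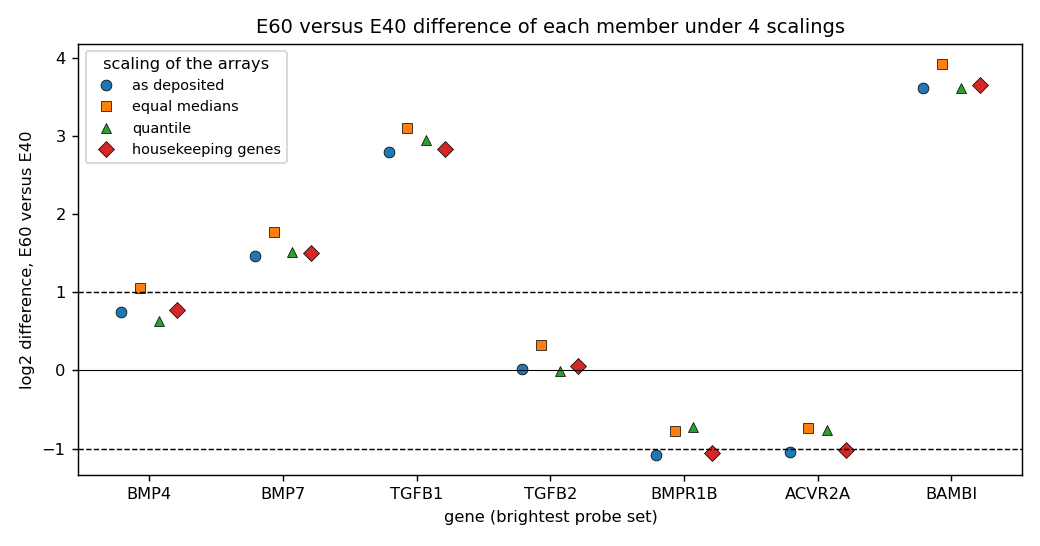
Log2 difference on E60 versus E40 of the brightest probe set of each member under 4 scalings of the arrays (vertical axis, dashed lines at 2-fold). BAMBI (3.61 to 3.92), TGFB1 (2.79 or more) and BMP7 (1.46 to 1.77) stayed above 2-fold under each, BMP4 passed it only at equal medians, BMPR1B and ACVR2A passed it as deposited and with housekeeping genes but not under the other 2, and TGFB2 stayed near 0.

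The median log2 difference of all probe sets over the first step was -0.15 as deposited, 0.24 with the arrays set to equal medians, 0.09 after quantile normalization and -0.20 with 11 housekeeping genes as the reference. Under equal medians and after quantile normalization the brightest probe sets of BMPR1B (-0.78 and -0.72) and ACVR2A (-0.74 and -0.76) and the dimmest of TGFB2 lost their calls over the whole interval, while the second probe sets of both receptors kept theirs. The calls of BMP7, TGFB1 and BAMBI named above held under all 4 scalings.

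Of 98 other genes of the pathway that were listed, 34 had a probe set with 1 symbol, so the account of the pathway is partial. By the brightest probe set of each gene, 2.73% of all genes were higher and 7.98% lower over the first step, 4.37% higher and 1.75% lower over the second step, and 4.44% higher and 7.21% lower over the whole interval. Of the other pathway genes, 0 of 32 measured were higher and 8 lower over the first step, 2 of 29 higher and 0 lower over the second step, and 1 of 32 higher and 6 lower over the whole interval. The median differences were 0.00, 0.11 and 0.12. The counts depended on the scaling: over the first step 6 were higher and 3 lower with equal medians, and 3 and 5 after quantile normalization. Over the whole interval they were 6 and 2 with equal medians and 4 and 5 after quantile normalization.

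Of 28 other ligands, 9 had a probe set. TGFB3, the third TGF-beta ligand, had signals of 594.8, 758.5 and 968.9, and INHBA, the subunit of activin A, 479.3, 496.5 and 346.5. Neither passed 2-fold in any pair as deposited. MSTN, which encodes the muscle growth inhibitor myostatin, had 69.4 on E40 and was under the floor on both later arrays (at least 4.03-fold lower over the first step), beside the skeletal muscle genes. INHA, the inhibin alpha subunit, was likewise above the floor on E40 alone (at least 3.01-fold lower over the first step). After quantile normalization MSTN kept its call in that pair (-1.30) and INHA lost it (-0.86). These last 2 are named after their values were seen.

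Of 15 other receptors and co-receptors, 8 had a probe set. Among type I receptors, ACVR1B, which serves activins, had signals of 1991.0, 3138.8 and 2850.2. TGFBR1, which serves the TGF-beta ligands, had 1591.7, 1817.8 and 2554.9. As deposited neither passed 2-fold in any pair, and with equal medians ACVR1B was called higher over the first step (1.04). BMPR1A, the type I receptor related to BMPR1B, had 1352.2, 1342.8 and 1479.9 and was named after its values were seen. Its 3 arrays were within 1.10-fold, while the brightest probe set of BMPR1B was 2.12-fold lower on E60 than on E40. AMHR2, the type II receptor of anti-Müllerian hormone, had 83.7, 36.4 and 38.3 and was down-regulated 2.30-fold over the first step, although not with equal medians or after quantile normalization (-0.81 and -0.57). TGFBR3, the co-receptor betaglycan, was at least 3.54-fold lower over the same step and was chosen after its values were seen. ACVR2B, the type II receptor related to ACVR2A and also named after the fact, was 1.99-fold lower over the first step, just short of the threshold. It crossed the threshold with housekeeping genes (-1.05) and stood at -0.27 after quantile normalization.

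The SMAD genes with a probe set were SMAD1, SMAD3 and SMAD4, and none of them passed 2-fold as deposited. SMAD1, which carries BMP signals, had signals of 1838.0, 2381.9 and 2241.3. SMAD4, the shared partner, had 2017.8, 2104.5 and 2480.8. SMAD3, which carries TGF-beta and activin signals and was named after its values were seen, had 73.0, 141.2 and 112.3. It stood at 0.95 over the first step and was called higher there with equal medians (1.34) and after quantile normalization (1.44). Among the other intracellular inhibitors PMEPA1, which holds receptor SMADs away from TGF-beta receptors, dipped at E50, with 2081.7, 1105.2 and 2261.7, and was up-regulated over the second step (log2 1.03), although not with equal medians (0.96). The other PMEPA1 probe sets gave 0.99, 0.73, 0.11 and 0.28 in that pair, from the brighter to the dimmer, and none was called. TGIF1, a corepressor of TGF-beta targets, had 1935.6, 2340.2 and 2025.5. Neither was higher at each later stage, as both BAMBI probe sets were.

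Of 16 extracellular antagonists listed, 3 had a probe set. By its brightest probe set and as deposited, no gene of the antagonist, latency and activation lists was called higher in any pair. The shares higher over all genes were 2.73%, 4.37% and 4.44% over the first step, the second step and the whole interval. With so few genes, a count of 0 is near those shares. DCN, the proteoglycan decorin, which binds TGF-beta, had signals of 8339.1, 6894.4 and 9319.4. FST, the activin binder follistatin, had 2225.1, 1276.9 and 1151.6, with -0.80 over the first step, while its other probe set was 5.66-fold lower. Of 10 latency and activation genes, 3 had a probe set. By the brightest probe set all 3 were called lower over the first step as deposited, and 0 of them with equal medians. Over all genes 7.98% were lower in that pair. Another probe set of BMP1 gave -0.37 and another of THBS1 0.14 over the first step, and neither was called. BMP1, a protease that cleaves procollagens and the BMP antagonist chordin, had 850.3, 326.7 and 379.3 (log2 -1.38). THBS1, which activates latent TGF-beta, had 860.6, 414.5 and 406.6 (-1.05). FBN1, the microfibril protein fibrillin 1, to which latent complexes bind, had 2632.2, 1311.7 and 2066.5 (2.01-fold lower). The FBN1 value lay at the threshold. The sums of the muscle, keratinised epithelium, tooth mesenchyme, endothelial, bone and macrophage lists were lower on E50 than on E40. The macrophage sum differed little (640.0 and 596.5). The sums of the tooth epithelium (222.9 and 5142.5) and cartilage lists (686.1 and 3430.8) were higher. Not every gene of the lists with a lower sum was lower. KRT10 (1320.7 and 1713.5), DSPP (3.6 and 80.3), ALPL (875.3 and 3846.9) and AIF1 (309.7 and 447.3) were among those higher on E50. IBSP, on both the mesenchyme and the bone list, had 4046.8 and 617.4, a larger drop than that of the whole bone sum (11302.5 and 9091.2). The part of these cell types was not tested.

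ID1 and ID3, direct targets of BMP signalling that block differentiation factors, had higher signals on both later arrays, by less than 2-fold as deposited. ID1 had signals of 6398.8, 10945.6 and 10599.8. ID3 had 5344.0, 8874.5 and 8756.7. For both, E40 was the lowest array and the later arrays lay close together. The differences were 0.77 and 0.73 over the first step, -0.05 and -0.02 over the second step, and 0.73 and 0.71 over the whole interval. With equal medians both passed 2-fold over the first step (1.16 and 1.12) and the whole interval (1.04 and 1.02). ID4, named after its values were seen, had 150.6, 259.4 and 266.7 (0.78 over the first step), whereas ID2, named likewise, had 72.6, 51.4 and 81.7. With equal medians ID4 was called higher over the first step (1.17) and the whole interval (1.13). The same held after quantile normalization (1.12 in both pairs). BMP4 and BMP7 stood at 0.44 and 1.09 over the first step, where only BMP7 was called. Over the second step they stood at 0.30 and 0.37, and neither was called. A link between these ligands and the ID genes was not tested.

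GADD45B, a stress gene that TGF-beta induces, was higher on E60 alone. Its signals were 219.3, 221.2 and 570.5, with differences of 1.37 over the second step and 0.01 over the first step. Its other probe set gave 1.31 and 0.36. MSX1, a homeobox gene that BMP4 induces in mouse dental mesenchyme, had 1559.0, 737.1 and 1213.7 and was down-regulated 2.12-fold over the first step, though not with equal medians (-0.69). Its other probe set, above the floor on E60 alone, was at least 2.11-fold higher over the second step. Of 15 target genes listed, 6 had a probe set. By the brightest, 0 were higher and 1 lower over the first step, and 1 higher and 0 lower over the second step. Over all genes 2.73% were higher and 7.98% lower over the first step, and 4.37% and 1.75% over the second step. With 6 genes, these counts cannot be set apart from those shares.

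**Figure D4:**
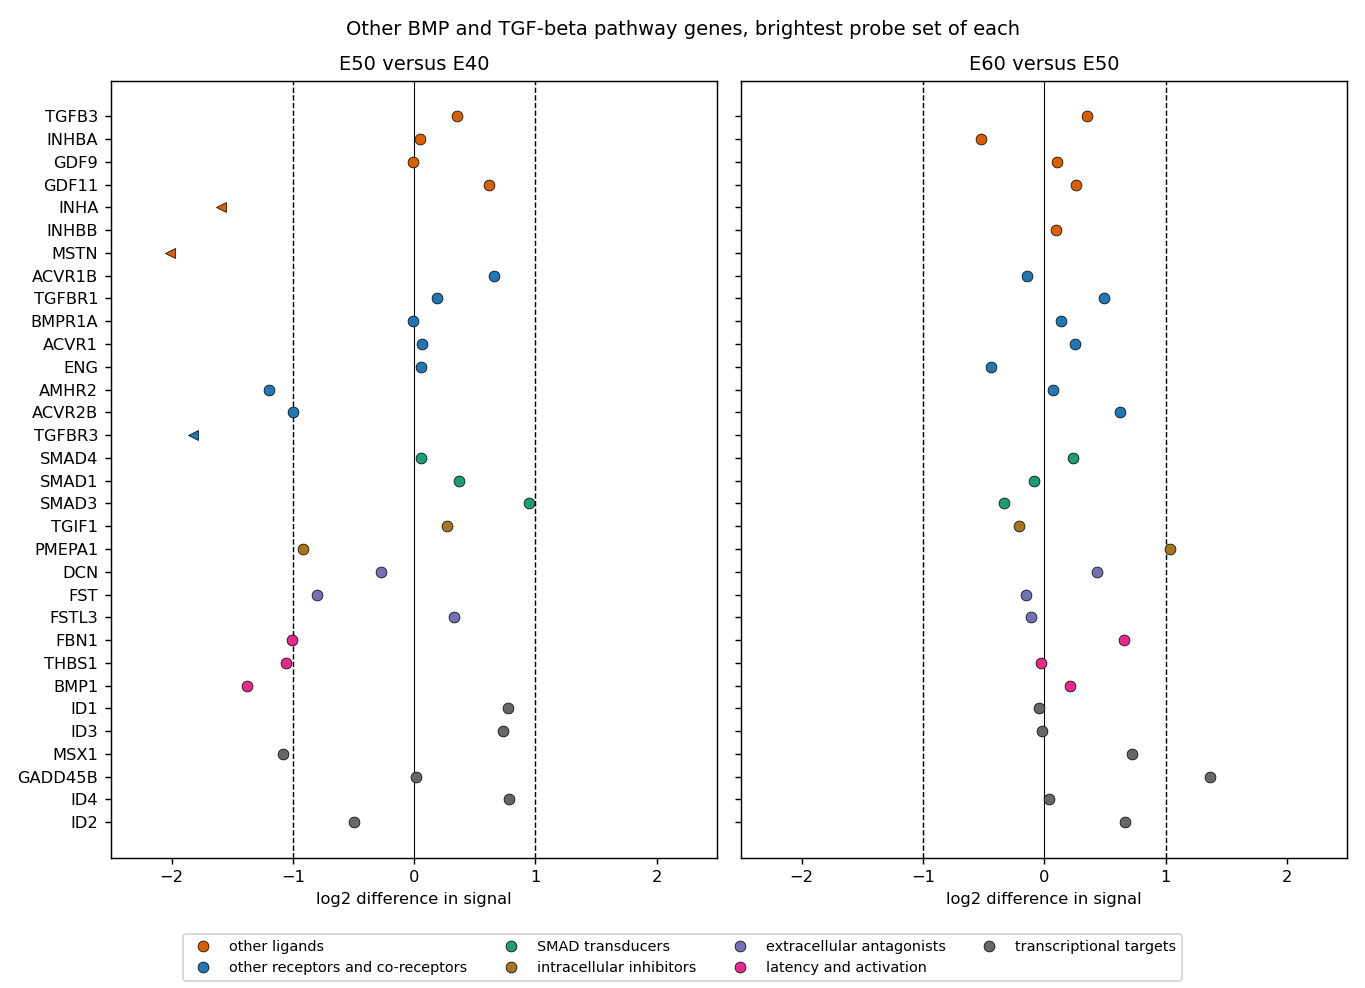
Log2 difference of the other pathway genes on E50 versus E40 and E60 versus E50, each by its brightest probe set and coloured by role, with dashed lines at 2-fold. Triangles are lower bounds, and genes with no fold in a pair have no mark. On E50 versus E40 all 3 latency and activation genes lie left of the lower line, and on E60 versus E50 only PMEPA1 and GADD45B lie right of the upper one.

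For each member that was called by its brightest probe set, the 3 genes nearest in the differences of E50 versus E40 and E60 versus E50 were listed among 5742 genes above the floor on every array, as a description over 3 arrays. The nearest to BAMBI were PLPPR5 (distance 0.18 log2 units), SATB1, a chromatin organiser (0.19), and LPAR3, a receptor for lysophosphatidic acid (0.42). SATB1 had signals of 392.8, 1982.5 and 4020.1. The nearest to TGFB1 were FBP1, an enzyme of gluconeogenesis (0.23), GAP43, a growth cone protein (0.38), and PPP1R14A, an inhibitor of myosin phosphatase (0.45). FBP1 had 112.0, 250.3 and 654.5. BMP7 had closer neighbours in ZKSCAN5 (0.06), ACTR6 (0.08) and ABCC6 (0.09). HDAC6, HAAO and FAM208B (each 0.04, rounded) were the nearest to BMPR1B, and CD247, TMEM79 and PDE3A stood within 0.05 of ACVR2A. With 2 differences per gene, nearness says only that the 3 arrays stood in like proportion.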

How the data were processed

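The authors computed MAS5 signals in GeneSpring from 1 array per stage and deposited them as log2 values, scaled per array (checked: the mean signal, trimmed by 2% at each end, was 495.2, 484.7 and 494.7 at E40, E50 and E60). Symbols were read from the platform table: 10069 probe sets have 1, 198 have several and 13732 have none, and all 15 member gene IDs matched the RefSeq gene table with the same symbol. 124 array controls were left out. 1 probe set with BMP7 and a second symbol was not counted. The number of arrays, 1 per stage, limits the precision, and no test was run.

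Differences, floors and calls were computed in Python 3.11.15 with numpy 2.4.6 and pandas 2.3.3 and tested on simulated data. Each gene's value is that of its brightest probe set, chosen by mean log2 signal over the arrays. Genes named were all members, in each pathway role the brightest 2 genes and those called with both signals at or above the floor, and the 3 nearest genes of each called member. The members and lists were chosen with earlier results of these data known. Alternatives were other floors, scalings, a 3-fold threshold, the probe sets used and, chosen after seeing the data, adding SMAD6 or leaving out BAMBI. The study's detection calls and qRT-PCR were not used here.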

Additional observations from a re-analysis of the deposited data

How the results depend on the processing

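No paired analysis was possible because each stage has 1 array, and no array could be left out. Under the 3 other scalings, 62 of 63 differences of single members by the brightest probe set stayed within 1.5-fold of their value. The exception was BMPR1B over the first step after quantile normalization. Equal medians and housekeeping genes add the same shift, smaller than 1.5-fold, to every member's difference in a pair. Their values could therefore not leave the limit, and only those after quantile normalization could. A common or absent floor and the suffix filter leave the differences of single members as they are by construction. With the floor at the 50th percentile, no receptor probe set was measured, so 0 member probe sets were lower over the first step and 0 over the whole interval and the median of the receptors and inhibitors could not be computed. Equal medians and quantile normalization each left 2 lower over the whole interval, and quantile normalization made 1 lower over the second step and moved the median of the receptors and inhibitors over the first step to 0.0028. At 3-fold, 2 were higher over the first step, 1 higher over the second step and 2 lower over the whole interval. Without probe sets shared by several transcripts, TGFB1 was lost and 3 were higher over the first step and 3 over the second step. With the probe set named SMAD6, the median of the receptors and inhibitors was 0.48 over the first step, 0.23 over the second step and 0.67 over the whole interval, a change of sign. No floor, a common floor and housekeeping genes moved no count or median of the members past 1.5-fold. Signal over background limits the receptors, all 5 of whose probe sets lay under the array median.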

Other observations

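The probe set that carries both BABAM1 and BMP7 as symbols had signals of 1072.9, 1294.3 and 1130.2 (E40, E50, E60) and was not called in any pair, unlike the probe set of BMP7 alone (1.09 over the first step, against 0.27 for the shared one).

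Second probe sets of other pathway genes, named after their values were seen, did not always follow the brightest. BMP1 gave -1.38 by its brightest probe set and -0.37 by the other over the first step, and THBS1 gave -1.05 and 0.14. FSTL3, a follistatin-like activin binder, gave 0.33 and 0.99 in the same pair. The FBN1 probe sets were close to each other, at 2.01-fold and 1.97-fold lower.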
